A study of Homo sapiens with 12 samples.

Results

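The transcripts described here are those of 10 genes of the immediate early response: the AP-1 subunits JUN (ENSG00000177606), JUNB (ENSG00000171223), JUND (ENSG00000130522), FOS (ENSG00000170345), FOSB (ENSG00000125740) and FOSL1 (ENSG00000175592), together with ATF3 (ENSG00000162772), EGR1 (ENSG00000120738), IER2 (ENSG00000160888) and MYC (ENSG00000136997). They were chosen by name, with earlier results of these data known. All were read out by Ensembl identifier, whatever their measured values, from the 60708 features of the deposited tables. All 10 were present and all 10 were among the 24040 features that passed the filter on low counts.

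Immediate early genes are transcribed within minutes of a stimulus, without new protein synthesis, and their mRNAs are short-lived. This describes the class and was not measured here for each of the 10 genes. AP-1 is a dimer of a Jun protein with a Fos, Jun or ATF protein that binds DNA through paired leucine zippers, and MAP kinases that growth factors, stress and cytokines such as IL-17 activate drive both its transcription and its activity. EGR1 is a zinc finger factor induced through serum response factor, IER2 is a small nuclear protein of the same early wave, ATF3 is a stress-induced leucine zipper factor, and MYC is a growth regulator that pairs with MAX. Many mRNAs of this class are regulated by RNA-binding proteins, and ARID5A is an RNA-binding protein known for stabilising inflammatory mRNAs such as that of IL6.

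The study asked which transcripts are recovered with Arid5a. The cells of every group were HK2, a human line of kidney epithelial origin, and carried 10 µg of a transfected plasmid for FLAG-tagged human Arid5a. They were given 200 ng/mL IL-17 or medium alone for 3 h and lysed, and RNA was immunoprecipitated with anti-FLAG or, as control, mouse IgG1. No other time was sampled, so a rise that had ended by 3 h could not be seen. This gave 4 groups of 3 libraries: FLAG with IL-17, FLAG in medium, IgG with IL-17 and IgG in medium. All groups carry the transfected protein, so the IgG libraries are the background of the precipitation and not cells without Arid5a, and no group of unprecipitated RNA was used here. The labels do not give the origin of the replicates as separate cultures, so p-values reflect the spread between libraries and that spread may be technical. More RNA in the cells and better recovery of the same RNA cannot be told apart within 1 antibody.

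Depth ranged from 746911 estimated counts, in IgG medium replicate 1, to 17723136, so that 3 counts stood for between 4.02 and 0.169 CPM (counts per 1000000). No gene of the set was at 0 in any library, but in the shallowest library FOS rested on 1 count and JUNB on 3. In FLAG medium replicate 3, FOS had 6 counts, or 0.95 CPM, with exact 95% Poisson bounds of 0.349 and 2.07 for counting error alone. Earlier processing of these data had set apart 4 libraries. IgG medium replicate 1 was set apart for its depth. FLAG medium replicate 1, IgG IL-17 replicate 1 and IgG medium replicate 2 were set apart as rich in features. These 3 held 28412, 42709 and 31792 features above 0, each the most of its group. FLAG IL-17 replicates 1 and 2 held 33329 and 33368 and were not set apart. Where leaving out 1 of the 4 libraries moved the estimate of a gene described below by much, the value without it stands beside the result. The tables hold no gene symbols and the reference paired none with Ensembl identifiers, so the epithelial identity of the cells was not checked here.

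The 10 genes lie on 6 chromosomes in RefSeq's annotation of GRCh38.p14. JUN (58780791 to 58784047) and ATF3 (212565407 to 212620777) are on chromosome 1, EGR1 (138465479 to 138469303) is on chromosome 5, MYC (127735434 to 127742951) is on chromosome 8, FOSL1 (65892049 to 65900545) is on chromosome 11 and FOS (75278828 to 75282230) is on chromosome 14. Chromosome 19 carries the other 4: JUNB (12791486 to 12793315), IER2 (13150411 to 13154911), JUND (18279694 to 18281622) and FOSB (45467996 to 45475179).

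MYC was the most abundant of the 10 per unit length, with the highest TPM (transcripts per 1000000, a level corrected for transcript length) in 12 of 12 libraries. Its TPM was 14.7, 8.66 and 5.37 in the FLAG libraries with IL-17, 10.2, 50.9 and 22.6 in the FLAG libraries in medium, 12.6, 7.92 and 6.46 in the IgG libraries with IL-17, and 5.42, 64.5 and 63.0 in the IgG libraries in medium. Those values lay above 94.3% to 97.9% of the tested features. The medium libraries held both the highest and nearly the lowest values, so the groups overlapped.

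Below MYC, the order by mean TPM over the 12 libraries was JUND at 9.47, JUN at 7.90, FOSL1 at 5.72, IER2 at 3.95, ATF3 at 3.85, JUNB at 3.75, FOS at 2.20, FOSB at 2.11 and EGR1 at 1.86. JUN exceeded FOSL1 and FOSL1 exceeded IER2 in 11 of 12 libraries each. The remaining neighbours were less separated: JUND was above JUN in 8 libraries, IER2 above ATF3 in 5, ATF3 above JUNB in 9, JUNB above FOS in 9, FOS above FOSB in 7 and FOSB above EGR1 in 5. Jun subunits and FOSL1, a Fos protein with no transactivation domain, were thus above FOS and FOSB in mean level per length. FOS ranged from 0.11 TPM, in FLAG medium replicate 3, to 6.76 TPM, in IgG IL-17 replicate 1, and JUNB from 0.22 to 8.45 TPM.

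**Figure D1:**
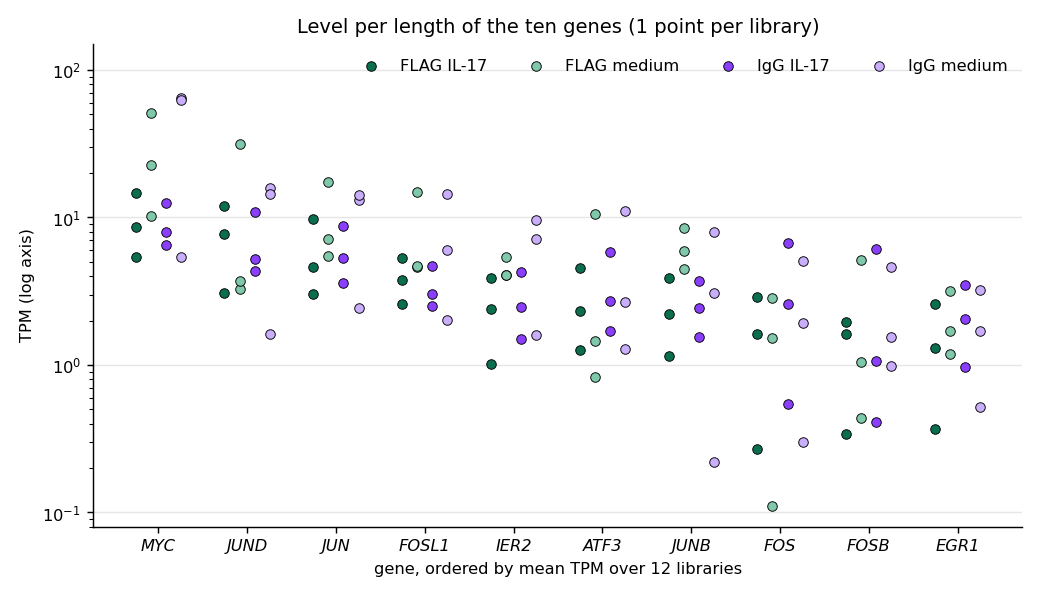
TPM of each gene in each of the 12 libraries on a log axis, with genes ordered by mean TPM and 1 point per library, coloured by group. MYC is the highest gene in 12 of 12 libraries, and the points of every other gene spread over a range wide enough to overlap its neighbours in the order.

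For comparisons between groups, counts were scaled to CPM with TMM factors (the trimmed mean of M values, a correction for library composition), which ranged from 0.614 to 1.55. Fold changes come from edgeR's quasi-likelihood test over all 24040 tested features, with Benjamini-Hochberg adjustment over all of them and a call at an adjusted p under 0.05. The SE of a log2 fold change was 0.52 to 0.84 for these genes, against a median of 1.34 to 1.38 over all tested features in the same comparisons of 2 groups. DESeq2 and limma, run on the same features, called none of the 10 genes in any of the 5 comparisons either. The comparisons share groups of libraries with each other, so they are not independent.

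**Figure D2:**
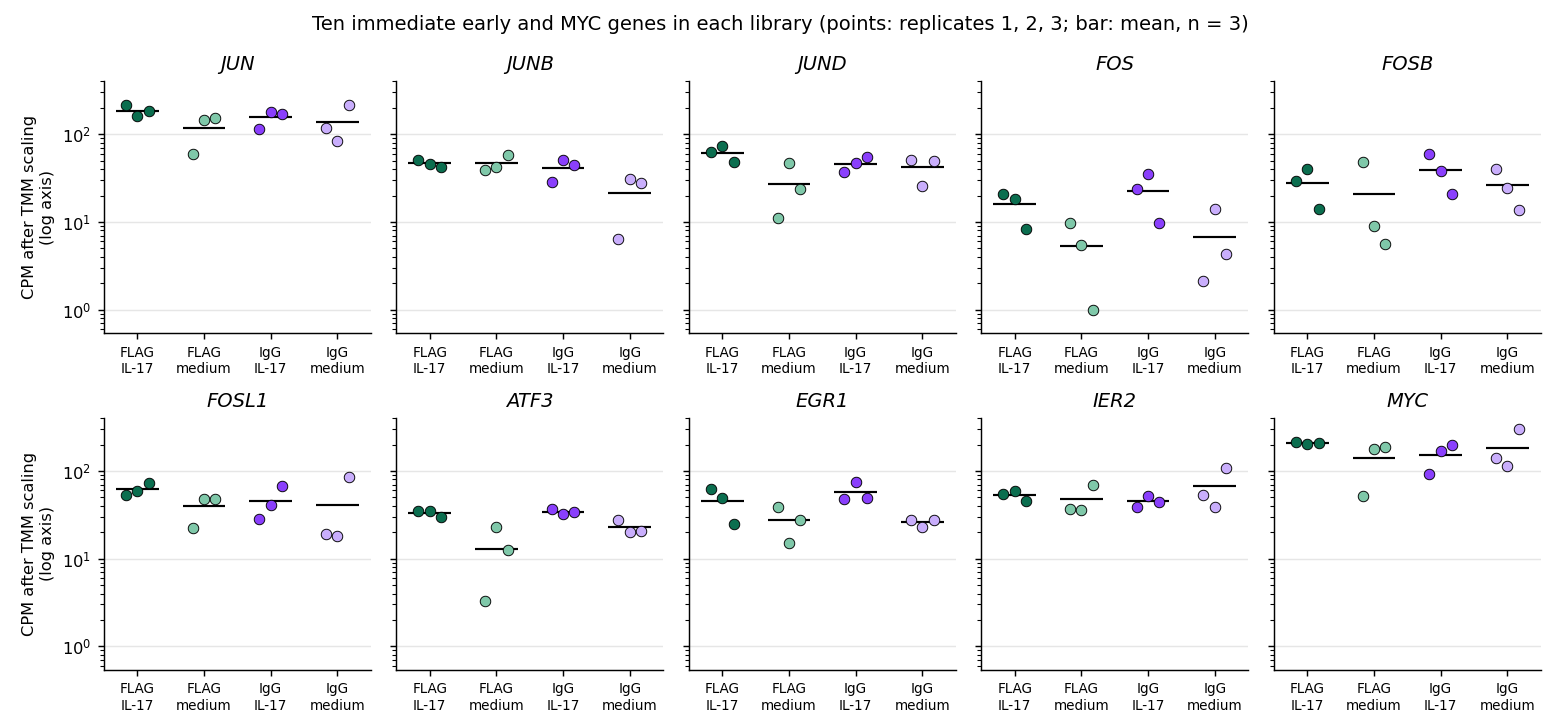
CPM after TMM scaling, on a log axis, of each gene in each library, with replicates 1 to 3 from left to right as points and the group mean as a bar (n = 3). FLAG medium replicate 1 is the lowest FLAG library for JUN, JUNB, JUND, FOSL1, ATF3 and MYC, and the highest FLAG medium library for FOS, FOSB and EGR1.

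None of the 10 genes was recovered at a higher or lower level with FLAG than with IgG in medium by the test. JUNB, the Jun subunit that often restrains JUN, came nearest: it had 39.6, 42.3 and 58.6 CPM with FLAG, against 6.36, 30.9 and 27.7 CPM with IgG. Every FLAG library lay above every IgG library. Its log2 fold change was 1.02 ± 0.55 (SE; adjusted p = 0.793), and it was 0.64 without IgG medium replicate 1, whose 6.36 CPM rests on 3 counts. JUNB was above 0 in this comparison under all 25 alternative settings, between 0.64 and 1.62.

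ATF3 and JUND, the Jun subunit that many resting cells express, had lower mean values with FLAG than with IgG in medium. ATF3 averaged 12.9 ± 9.73 CPM with FLAG and 22.7 ± 4.22 CPM with IgG (SD, n = 3 each), a log2 fold change of -0.77 ± 0.60 (SE; adjusted p = 0.947). JUND averaged 27.2 ± 18.3 CPM with FLAG and 41.9 ± 14.2 CPM with IgG (SD, n = 3 each), a log2 fold change of -0.59 ± 0.56 (SE; adjusted p = 0.980). In both genes the FLAG group holds a low replicate 1, at 3.33 CPM for ATF3 and 11.1 CPM for JUND, and the groups overlapped. Without that library the estimates were -0.32 for ATF3 and -0.18 for JUND.

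The other 7 genes had log2 fold changes between -0.51 and 0.07, and 2 of the 10 genes were above 0, JUNB and EGR1. Without FLAG medium replicate 1, FOS was at -1.28 and FOSB at -1.79, JUN at 0.15, FOSL1 at 0.27 and MYC at 0.03, and FOS was at 0.79 without IgG medium replicate 2. Under other scalings and tools the number of genes above 0 was between 1 and 5. It was 6 without IgG medium replicate 3, where FOSL1 had 84.6 CPM, against 19.1 and 18.0 CPM in IgG medium replicates 1 and 2. FOSL1 lay between -0.67 and 1.06 over the 25 alternatives. The median over the 10 genes was -0.35, beside 0.20 over all tested features. None of the 10 passed the adjusted threshold or an unadjusted p under 0.05, where 0.0% and 6.56% of all tested features did. JUNB was the single gene of the 10 whose FLAG libraries all lay above the IgG libraries, as they did for 5.07% of all tested features, and for none of the 10 did they all lie below, as for 1.11% of all tested features.

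With IL-17, no gene passed the test of FLAG over IgG, and the 95% intervals were wide, from -2.18 to 1.13 for FOS. MYC had 215.1, 201.1 and 209.2 CPM with FLAG, against 93.05, 170.5 and 198.4 CPM with IgG. The FLAG libraries lay close together and all above the IgG libraries, the nearest pair being 201.1 and 198.4 CPM. The log2 fold change was 0.44 ± 0.56 (SE; adjusted p = 0.924), and it was above 0 under all 25 alternatives, between 0.03 and 0.56. It was 0.18 without IgG IL-17 replicate 1, the library at 93.05 CPM.

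None of the Fos subunits passed in this comparison. FOSL1 averaged 61.8 ± 10.1 CPM with FLAG and 45.7 ± 19.9 CPM with IgG (SD, n = 3 each), a log2 fold change of 0.43 ± 0.59 (SE; adjusted p = 0.924) that was 0.19 without IgG IL-17 replicate 1. FOS averaged 15.8 ± 6.67 CPM with FLAG and 22.8 ± 12.6 CPM with IgG, and FOSB 27.9 ± 13.1 CPM with FLAG and 39.4 ± 19.5 CPM with IgG (SD, n = 3 each). Their log2 fold changes were -0.52 ± 0.80 and -0.50 ± 0.68 (SE), with adjusted p = 0.930 and 0.924, and the libraries of both antibodies overlapped for all 3 Fos genes. FOSB had its highest value, 59.5 CPM, in IgG IL-17 replicate 1, and without that library its estimate was -0.06.

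The remaining genes lay between -0.35, for EGR1, and 0.41, for JUND. Of the 10, 6 were above 0, and 3 were with DESeq2 or on the deposited TPM. The median over the 10 was 0.21, beside -0.33 over all tested features. With the strict filter this gap was gone, at -0.006 over the 10 and -0.010 over all. No gene of the 10 passed the adjusted threshold or an unadjusted p under 0.05, where 0.0% and 2.81% of all tested features did. MYC was 1 of 10 whose FLAG libraries all lay above the IgG libraries, which held for 14.6% of all tested features, and 0 of 10 lay wholly below, which held for 12.3%.

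**Figure D3:**
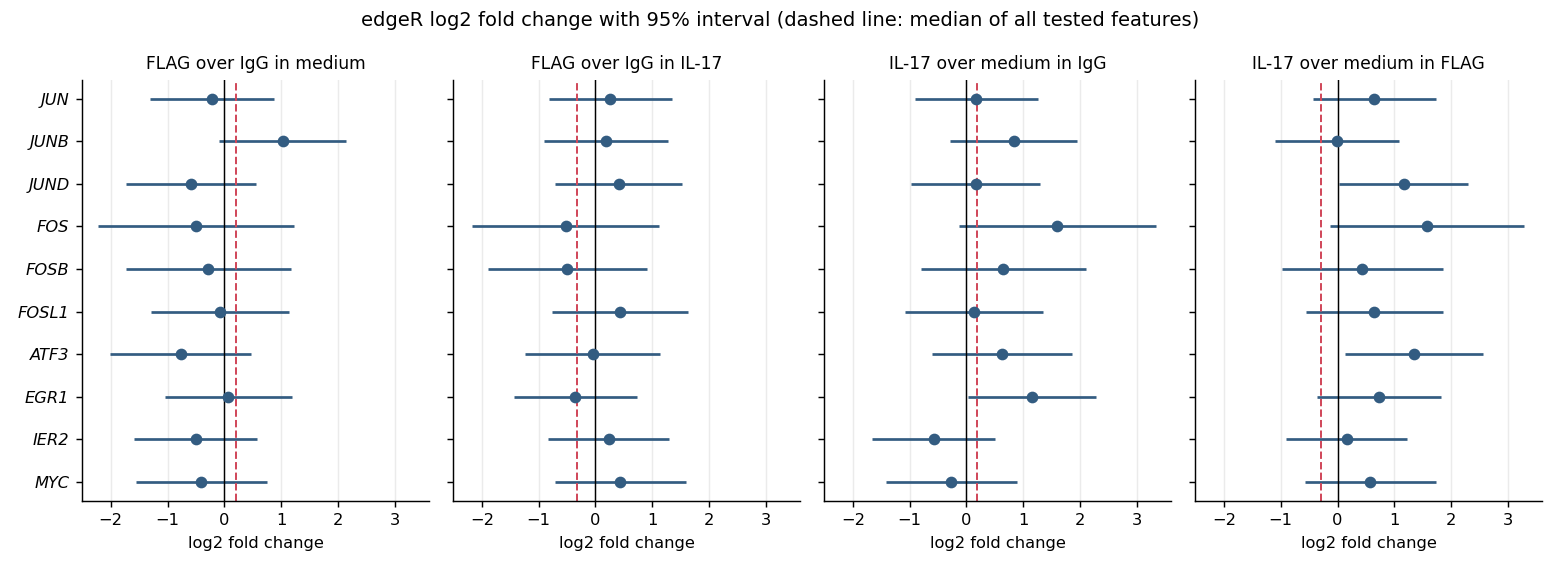
Log2 fold change of each gene with its 95% interval from edgeR in 4 comparisons, with the median of all tested features as a dashed line. No gene passed the adjusted threshold. The intervals of JUND and ATF3 for IL-17 over medium in FLAG, and of EGR1 for IL-17 over medium in IgG, lie above 0 before adjustment, while on the deposited TPM the estimates of JUND and ATF3 in FLAG lie at -0.17 and -0.11.

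Within the IgG libraries, FOS and EGR1 had the highest ratios of IL-17 to medium of the 10 genes, and no gene passed the test. EGR1 had 47.9, 75.4 and 49.4 CPM with IL-17, against 27.6, 22.9 and 27.7 CPM in medium. Its groups did not overlap, and its log2 fold change was 1.15 ± 0.55 (SE; unadjusted p = 0.0442, adjusted p = 0.889, n = 3 libraries a group, edgeR). EGR1 was above 0 under all 25 alternatives, between 0.21 on the deposited TPM and 1.295.

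FOS had 23.97, 34.8 and 9.68 CPM with IL-17, against 2.12, 13.9 and 4.36 CPM in medium. Medium replicate 2 exceeded IL-17 replicate 3, so the groups overlapped. The log2 fold change was 1.60 ± 0.84 (SE; adjusted p = 0.915). It was 1.28 without IgG medium replicate 1, where FOS rests on 1 count, 2.76 without IgG medium replicate 2, and above 0 under all 25 alternatives.

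ATF3 had 36.6, 32.4 and 33.8 CPM with IL-17, against 27.6, 20.03 and 20.5 CPM in medium, and the groups did not overlap. The log2 fold change was 0.62 ± 0.60 (SE; adjusted p = 1), and -0.19 on the deposited TPM. JUNB averaged 41.0 ± 11.2 CPM with IL-17 and 21.6 ± 13.3 CPM in medium (SD, n = 3 each), a log2 fold change of 0.83 ± 0.54 (SE; adjusted p = 0.986) that was 0.45 without IgG medium replicate 1 and -0.04 on the deposited TPM.

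IER2 and MYC had estimates below 0. IER2 averaged 45.0 ± 6.33 CPM with IL-17 and 66.8 ± 37.2 CPM in medium, and MYC 154.0 ± 54.6 CPM with IL-17 and 184.9 ± 100.1 CPM in medium (SD, n = 3 each). IgG medium replicate 3 held the highest value of all 12 libraries for both, at 108.9 CPM for IER2 and 299.6 CPM for MYC. JUN, JUND and FOSL1 had log2 fold changes between 0.14 and 0.17, and FOSB 0.65 ± 0.71 (SE). FOSL1 had 84.6 CPM in IgG medium replicate 3, against 19.1 and 18.0 CPM in IgG medium replicates 1 and 2. Its estimate lay between -0.76 and 1.22 over the 25 alternatives. Without IgG IL-17 replicate 1, FOSB was at 0.24 and MYC at 0.01, against -0.27 for MYC with it.

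In all, 8 of the 10 genes had an estimate above 0 in the IgG libraries, but 2 did on the deposited TPM. The median over the 10 was 0.40, beside 0.18 over all tested features, and 0.31 beside 0.06 with the strict filter. None of the 10 passed the adjusted threshold, which 0.0125% of all tested features did. EGR1, higher with IL-17, was the 1 gene with an unadjusted p under 0.05 in edgeR, as 5.57% of all tested features had in either direction. By direction, 912 of the 24040 had such a p with a higher estimate and 427 with a lower one. The IL-17 libraries lay wholly above the medium libraries for 2 of the 10, against 9.69% of all tested features, and wholly below for none of the 10, against 1.93%.

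Within the FLAG libraries, ATF3, JUND and FOS had the highest ratios of IL-17 to medium, and 9 of the 10 genes had an estimate above 0 on the TMM scale, but 1 of 10 did on the deposited TPM. No gene passed the test. ATF3 had 35.2, 34.7 and 29.6 CPM with IL-17, against 3.33, 22.8 and 12.6 CPM in medium. All IL-17 libraries lay above all medium libraries, and medium replicate 1 was far below the other 2. The log2 fold change was 1.34 with a 95% interval of 0.13 to 2.56 (unadjusted p = 0.0319, adjusted p = 0.457, edgeR, n = 3 libraries a group), and it was 0.89 without medium replicate 1.

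JUND had 62.6, 73.0 and 48.7 CPM with IL-17, against 11.1, 47.2 and 23.5 CPM in medium. Its groups did not overlap, although IL-17 replicate 3 and medium replicate 2 lay close together. The log2 fold change was 1.16 with a 95% interval of 0.03 to 2.30 (unadjusted p = 0.0441, adjusted p = 0.457, edgeR, n = 3 libraries a group), and it was 0.79 without medium replicate 1.

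Among the Fos genes, FOS and FOSB had their highest medium value in replicate 1, and FOSL1 in replicate 3. FOS had 21.0, 18.2 and 8.31 CPM with IL-17, against 9.70, 5.45 and 0.986 CPM in medium, a log2 fold change of 1.57 ± 0.83 (SE; adjusted p = 0.464). FOSB had 29.3, 40.2 and 14.1 CPM with IL-17, against 48.0, 8.92 and 5.59 CPM in medium, a log2 fold change of 0.44 ± 0.69 (SE; adjusted p = 0.761). In both, medium replicate 1 was the highest of the medium libraries, and in FOSB it exceeded every IL-17 library.

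Leaving FLAG medium replicate 1 out, the log2 fold change was 2.27 for FOS and 1.94 for FOSB, each with an adjusted p of 0.788. With all 4 libraries that stand apart left out, FOSB passed the test, at 1.94 (adjusted p = 0.0263, edgeR), the only call of any of the 10 genes under any setting tried. In that fit 2.26% of all tested features passed, more than the share with all libraries. That fit compares FLAG IL-17 with the remaining pair of FLAG medium libraries. FOSL1 had 53.3, 59.0 and 73.0 CPM with IL-17, against 22.5, 47.6 and 48.1 CPM in medium, a log2 fold change of 0.65 ± 0.59 (SE; adjusted p = 0.601) that was 0.35 without medium replicate 1 and -0.74 on the deposited TPM.

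After TMM scaling, JUN and MYC, the genes with the most counts, had higher values in all 3 IL-17 libraries than in any medium library. JUN had 213.0, 162.5 and 184.1 CPM with IL-17, against 59.9, 145.2 and 151.5 CPM in medium. MYC had 215.1, 201.1 and 209.2 CPM with IL-17, against 52.1, 178.0 and 188.4 CPM in medium. In both the gap to medium replicates 2 and 3 was small, and the log2 fold changes of 0.65 ± 0.53 for JUN and 0.58 ± 0.56 for MYC (SE) had adjusted p = 0.563 and 0.621. Without medium replicate 1 they were 0.32 for JUN and 0.17 for MYC.

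EGR1 averaged 45.1 ± 18.9 CPM with IL-17 and 27.2 ± 11.7 CPM in medium, and JUNB 46.5 ± 4.57 CPM with IL-17 and 46.9 ± 10.3 CPM in medium (SD, n = 3 each). IER2 averaged 52.9 ± 6.93 CPM with IL-17 and 47.3 ± 18.8 CPM in medium. The estimates were 0.73, -0.01 and 0.16, and the libraries of all 3 genes overlapped between groups.

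The median over the 10 genes was 0.65, beside -0.29 over all tested features. With the strict filter these medians lay closer, at 0.26 and -0.04. None of the 10 passed the adjusted threshold, which 0.225% of all tested features did. Of the 10, 2 had an unadjusted p under 0.05 in edgeR, ATF3 and JUND, each higher with IL-17. The share over all tested features was 10.9% in either direction. By direction, 734 of the 24040 had such a p with a higher estimate and 1889 with a lower one. After TMM scaling, the IL-17 libraries lay wholly above the medium libraries for 5 of the 10 (JUN, JUND, FOSL1, ATF3 and MYC). They did so for 17.3% of all tested features. None of the 10 had them wholly below, against 11.0%. In CPM without TMM factors, the groups overlapped for all 5 genes. MYC was then at 128.3 to 220.0 CPM with IL-17 and 78.3 to 237.6 CPM in medium. FLAG medium replicate 1 was the lowest medium library for each of these 5 genes. The highest was replicate 2 or 3, and the count on the TMM scale rests on the highest. The estimates without replicate 1 are given above.

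The change of FLAG over IgG with IL-17, which is the test of whether recovery with Arid5a depends on the cytokine, called none of the 10 genes. JUND had the highest estimate, 1.004 ± 0.78 (SE; adjusted p = 0.782), followed by MYC at 0.85 ± 0.79 (SE; adjusted p = 0.813). Without FLAG medium replicate 1 they were 0.59 for JUND and 0.40 for MYC. JUNB had the lowest, -0.85 ± 0.76 (SE; adjusted p = 0.808), and was below 0 under all 24 alternatives run for this comparison, at -0.38 without IgG medium replicate 1. FOS was at -0.02 with a 95% interval of -2.51 to 2.47, so that neither a gain nor a loss of several fold could be told from none. Of the 10, 6 were above 0, with a median of 0.49 beside -0.52 over all tested features. With the strict filter the medians were 0.18 and -0.10. No gene of the 10 passed the adjusted threshold or an unadjusted p under 0.05, where 0.0% and 7.35% of all tested features did.

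The direction of the IL-17 effect on these genes depended on the scale. In FLAG, the deposited TPM gave estimates below 0 for 9 of 10 genes, with a median of -0.52 on the log2(TPM + 1) scale beside -0.45 over all tested features. In IgG, they were below 0 for 8 of 10, with a median of -0.22 beside -0.21. After TMM scaling of the same TPM columns, an alternative chosen after seeing the data, the estimates were above 0 for 10 of 10 genes in FLAG and 9 of 10 in IgG, with medians of 0.53 and 0.58. MYC shows the span: its estimate for IL-17 over medium in FLAG was 0.58 on TMM-scaled counts, 0.18 with DESeq2, -1.28 on the deposited TPM and 0.13 on the rescaled TPM.

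The share of TPM that very short features take moves with this difference. The shortest 10% of features, by the length that count and TPM imply, took 94.1% to 96.2% of TPM in the FLAG libraries with IL-17 and 86.3% to 92.2% in those in medium, and 92.8% to 95.5% in the IgG libraries with IL-17 and 81.5% to 94.7% in those in medium. The TPM of a library sums to a fixed total. The median TPM per CPM of the 10 genes was 0.0431 to 0.0712 in the FLAG libraries with IL-17 and 0.0917 to 0.180 in those in medium, with no overlap, and 0.0492 to 0.0873 in the IgG libraries with IL-17 and 0.0528 to 0.205 in those in medium, which overlap. Whether this share sets the sign was not tested beyond the rescaled TPM above. The sign on counts depended less on the scaling: with DESeq2, 7 of the 10 were above 0 in FLAG and 8 in IgG. RLE factors moved the median over all tested features in FLAG to -0.89, and that over the 10 genes to 0.18. With library size only, these medians in FLAG were -0.92 and 0.08, and 7 of the 10 were above 0.

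**Figure D4:**
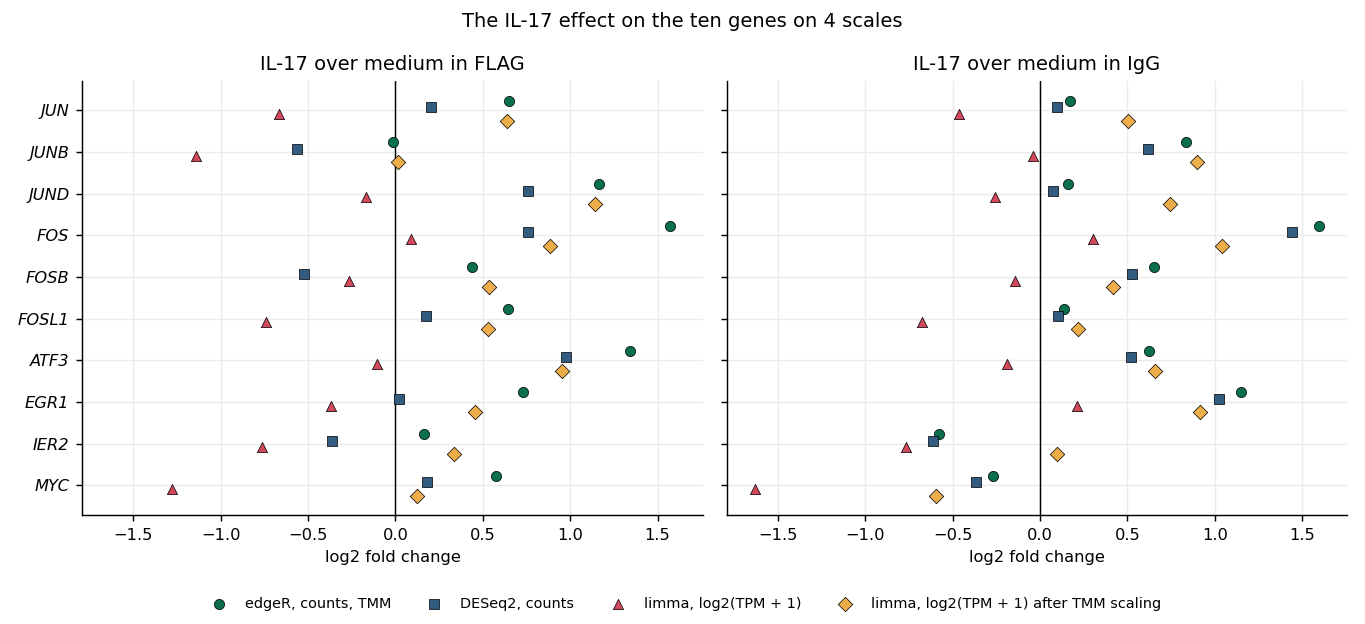
Log2 fold change of IL-17 over medium for each gene in FLAG and in IgG libraries on 4 scales: edgeR on TMM-scaled counts, DESeq2, limma on log2(TPM + 1), and limma on log2(TPM + 1) after TMM scaling. On the deposited TPM 1 gene of 10 in FLAG and 2 of 10 in IgG are above 0, against 9 and 8 on TMM-scaled counts, and FOS is above 0 on all 4 scales in both panels.

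Ratios of counts within a library need no scaling between libraries. Per 100 JUN counts, the FLAG libraries held 25.0, 36.3 and 39.6 FOSL1 counts with IL-17 and 37.5, 32.7 and 31.8 in medium, and the groups overlapped. FOS per 100 JUN was 9.87, 11.2 and 4.51 with IL-17 and 16.2, 3.75 and 0.651 in medium, a range within the medium group that spans the whole IL-17 group. ATF3 per 100 JUN was 16.1 to 21.4 with IL-17 and 5.56 to 15.7 in medium in the FLAG libraries, which did not overlap, and 17.9 to 31.8 with IL-17 and 9.60 to 23.7 in medium in the IgG libraries, which did.

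In the IgG libraries, EGR1 per 100 MYC counts was 51.5, 44.2 and 24.9 with IL-17, against 19.7, 19.8 and 9.24 in medium, with no overlap between the groups. In the FLAG libraries the same ratio averaged 21.6 ± 8.81 with IL-17 and 32.4 ± 36.1 in medium (SD, n = 3 each), in the other direction and with overlap. IER2 per 100 JUN was 25.9 to 33.9 with IL-17 and 45.5 to 51.0 in medium in the IgG libraries, which did not overlap, and 24.5 to 36.0 with IL-17 and 24.8 to 61.7 in medium in the FLAG libraries, which did. JUNB per 100 JUN in the FLAG libraries was 22.97 to 28.12 with IL-17 and 29.13 to 66.2 in medium, with no overlap. In the IgG libraries, MYC per 100 JUN was 80.9 to 115.6 with IL-17 and 120 to 140.3 in medium. EGR1 per 100 JUN in the IgG libraries was 28.78 to 41.67 with IL-17 and 12.97 to 27.04 in medium. Neither overlapped. With the other antibody, each of these ratios overlapped. FOSB and JUND per 100 JUN, and FOS per 100 FOSL1, were also computed and overlapped in the libraries of both antibodies. The share of all features whose ratios separate in this way was not computed, so these non-overlaps have no background beside them. These ratios show unequal levels of a pair of genes and do not say which of the pair differs.

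Within the set, likeness was measured as the root mean square difference between log2(TPM + 1) values, each centred on its mean, over the 12 libraries. JUN and IER2 were the closest pair, at 0.310 log2 units, and JUN was also the nearest member to FOSL1 (0.324), JUND (0.450), JUNB (0.468) and MYC (0.588). FOS and FOSB were nearest to each other (0.403), EGR1 was nearest to FOS (0.428), and ATF3 was nearest to JUND (0.469). All points share the scaling and depth of their library, so these values are a description. The 2 tested features nearest to MYC were ENSG00000131470 (0.183) and ENSG00000161057 (0.195), which the files do not name.

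FOS and FOSB, each the nearest member to the other, and EGR1, whose nearest member was FOS, are shown with their promoter windows. The control of this class of genes is best known at promoters. The precipitated RNA does not measure promoters. The windows are RefSeq's for GRCh38.p14, from 250 bases before to 50 after the gene start, read 5′ to 3′ on the gene's strand, and all 3 genes are on the plus strand. Capitals mark matches on either strand to TGACG, the core of the cyclic AMP response element, and, in EGR1, to the CArG box that serum response factor binds.
FOS, chr14:75278578-75278877: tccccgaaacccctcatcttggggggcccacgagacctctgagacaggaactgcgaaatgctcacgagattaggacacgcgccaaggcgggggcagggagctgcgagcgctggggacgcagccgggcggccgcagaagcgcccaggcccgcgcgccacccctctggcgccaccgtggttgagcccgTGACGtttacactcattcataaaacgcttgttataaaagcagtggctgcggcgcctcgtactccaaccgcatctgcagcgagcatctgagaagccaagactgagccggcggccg
FOSB, chr19:45467746-45468045: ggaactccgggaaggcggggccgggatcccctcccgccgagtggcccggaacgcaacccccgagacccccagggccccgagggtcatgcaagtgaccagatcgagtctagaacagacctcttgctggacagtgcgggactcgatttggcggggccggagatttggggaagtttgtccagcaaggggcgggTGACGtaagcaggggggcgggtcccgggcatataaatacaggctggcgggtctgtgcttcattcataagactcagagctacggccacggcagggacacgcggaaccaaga
EGR1, chr5:138465229-138465528: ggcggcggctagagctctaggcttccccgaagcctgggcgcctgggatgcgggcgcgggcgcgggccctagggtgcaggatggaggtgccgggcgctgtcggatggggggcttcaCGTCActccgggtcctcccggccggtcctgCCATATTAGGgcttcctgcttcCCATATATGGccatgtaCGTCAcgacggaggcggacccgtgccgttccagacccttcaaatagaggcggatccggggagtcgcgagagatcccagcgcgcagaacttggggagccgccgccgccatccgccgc

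Windows were found for 8 of the 10 genes, 9 windows in all because ATF3 has 2, and those of FOSL1 and MYC were not analysed here. The core TGACG was found in 7 of the 9 windows, each of another gene, against 24.6% of 35116 windows of the same length, and the first base of the match lay at -64 in FOS and -60 in FOSB. The full element TGACGTCA, which contains that core on each strand, was found in 1 of the 9, that of JUND, against 1.85% of all windows. CArG boxes were found in 1 of the 9, that of EGR1, at -105 and -83, against 1.29% of all windows. The AP-1 site TGANTCA, on either strand, was in none of the 9, against 7.71%, and TATAAA on the gene's strand was in 4, including FOS at -33, JUNB at -31 and FOSB at -30, against 7.33%. These letters describe the windows and not occupied sites. Only exact matches to these motifs were sought, and variant forms of a site were not. Sequence more than 250 bases before the start was not searched. A window without a match therefore does not show that the gene lacks the element.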

How the data were processed

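The authors deposited a table of estimated counts per gene and a table named for FPKM. Each column of the second sums to between 999997 and 1000000, so these deposited values were treated as TPM. GRCh38 (hg38), the aligner STAR 2.7.9, the quantifier RSEM 1.3.1, and DESeq2 1.36.0 in R 4.2.0 appear in the submitters' processing notes, with no role stated. The annotation release and strand setting are not known. The labels put 3 libraries in each of 4 groups.

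Counts were rounded to whole numbers (10 of the 120 values of these genes were not whole, 9 of them IER2). Of 60708 features, 24040 passed filterByExpr with a minimum count of 10. They were fitted with edgeR 4.0.16 (R 4.3.3), with TMM factors and 4 group means over 12 libraries, and tested with the quasi-likelihood test. The script was tested on simulated counts with 200 changed features in each comparison of 2 groups. At the same threshold, 2.99% to 11.9% of 4-fold changes were recovered. For 16-fold changes the share was 37.3% to 49.3%, and for 64-fold changes 63.6% to 72.7%. The changed features were drawn from all those tested, whose median SE is larger than that of the 10 genes. Alternatives were DESeq2 1.42.0, limma 3.58.1 on the log2 scale with a pseudocount of 1 or 0.1 TPM, other scalings and filters, the replicate number as a block, and fits without single libraries. The 10 genes were named by a rule that takes all members in every comparison; they, the lists and the libraries set apart were chosen with earlier results of these data known. Lists of other immediate early genes, signalling genes and cell markers were not analysed here, because 0 features of the table could be paired with symbols. Same-numbered libraries were not shown to be paired.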

Additional observations from a re-analysis of the deposited data

How the results depend on the processing

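No gene of the 10 was called under the main setting, and 1 was under any alternative: FOSB for IL-17 over medium in FLAG, the 1 member called higher with the 4 libraries that stand apart left out. An estimate that passes no test and changes sign was not counted as a reversal, and 168 of 1240 member estimates did so, among them 21 and 23 of 50 with the 2 pseudocounts on the deposited TPM. The cause of the changes below was not tested, except that fewer libraries or fewer features enter some fits by construction. For FLAG over IgG in medium, 0 features were called higher and 0 lower. The numbers were 9 and 39 with no filter, 93 and 47 with DESeq2, 1 and 3 with the replicate block, 981 and 256 with the 4 libraries left out, and 1 higher on log2(TPM + 0.1); single libraries left out gave 0 to 9 higher and 0 to 1 lower. The number of members above 0 was 2 there, and 4 with RLE factors, 1 with upper quartile factors, 5 with library size only, 4 with the strict filter of 50 counts in 3 libraries, 4 with DESeq2, 4 and 5 on log2(TPM + 1) and log2(TPM + 0.1), 4 on TMM-scaled TPM, 5 with only the groups compared, 1 with the 3 feature-rich or all 4 libraries left out, and 2 to 6 with single libraries left out. For FLAG over IgG in IL-17, 0 features were called higher and 0 lower, with 2 and 2 with no filter, 1 and 8 with DESeq2, 3 and 2 with the 4 libraries left out, 1 higher on log2(TPM + 1), and 0 to 2 higher with single libraries left out. Members above 0 were 6 there, and 3 with RLE factors, upper quartile factors, DESeq2 and both TPM settings, and 3 to 7 with single libraries left out. For IL-17 over medium in IgG, 3 features were called higher and 0 lower, with 5 higher with library size only and on TMM-scaled TPM, 43 and 26 with no filter, 122 and 196 with DESeq2, 25 and 8 with the replicate block, 1191 and 440 with the 4 libraries left out, 6 lower with RLE factors and with the strict filter, 2 lower with upper quartile factors, 1 lower on log2(TPM + 0.1), and 2 to 64 higher and 0 to 11 lower with single libraries left out. Members above 0 were 8 there, and 2 and 3 on log2(TPM + 1) and log2(TPM + 0.1). For IL-17 over medium in FLAG, 53 features were called higher and 1 lower, with 4 higher with RLE factors and with the strict filter, 7 and 0 with upper quartile factors, 137 and 91 with no filter, 160 and 869 with DESeq2, 5 higher on both TPM settings, 10 on TMM-scaled TPM, 99 and 37 with the replicate block, 2 and 0 with the 3 libraries left out, 464 and 188 with the 4, 8 lower with only the groups compared, and 5 to 82 higher and 0 to 26 lower with single libraries left out. Members above 0 were 9 there, and 1 on both TPM settings. For the change of FLAG over IgG with IL-17, 0 and 0 features were called, with 8 and 7 with no filter, 12 and 96 with DESeq2, 2 and 1 with the replicate block, 111 and 556 with the 4 libraries left out, and 0 to 1 higher and 0 to 2 lower with single libraries left out. With the 4 libraries left out, IgG in medium is 1 library that is assumed to vary like the others.

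The replicate block called none of the 10 genes. Deviations of same-numbered libraries from their group means correlated at 0.06, -0.11 and 0.28 for numbers 1 to 3 of FLAG and IgG in medium, and between -0.14 and 0.39 in the other comparisons. Number 3 was above 0.1 in all 4 comparisons and number 2 was below 0 in all 4, so pairing by number was not shown. Depth limits FOS most, which rests on 1 and 6 counts in 2 of the medium libraries.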

Other observations

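MYC was the single gene of 9 whose count per TPM, relative to that of JUN in the same library, separated the libraries by treatment. This ratio, which follows the length that the authors' processing assigned to the expressed transcripts, was 0.562 to 0.668 in the 6 libraries with IL-17, against 0.278 to 0.542 in the 6 libraries in medium. The 0.542 is of IgG medium replicate 1, the shallowest library, where MYC rests on 66 counts and JUN on 55. Of the 2658 tested features with at least 20 counts and 0.2 TPM in all 12 libraries, 6.66% were wholly above with IL-17 by this ratio. Another 2.48% were wholly below. A separation of 1 gene in 9 is near these shares and is not read as a trait of MYC. The other 8 genes overlapped between IL-17 and medium. Among them, FOSL1 was at 0.444 to 0.482 with IL-17 and 0.198 to 0.480 in medium. JUND was at 0.238 to 0.269 with IL-17 and 0.179 to 0.656 in medium. The 0.198 and the 0.656 are also of IgG medium replicate 1, where FOSL1 had 9 counts and JUND 24.

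The 10 genes together took 0.0417% to 0.0816% of the counts in the FLAG libraries with IL-17 and 0.0483% to 0.0732% in the FLAG libraries in medium. The share was 0.0484% to 0.0773% in the IgG libraries with IL-17 and 0.0305% to 0.0871% in the IgG libraries in medium, so the groups overlapped.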
